A study of Danio rerio with 12 samples.

Results

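The 42 Hox cluster genes on the zebrafish array were followed through caudal fin regrowth in larvae exposed to the dioxin TCDD or to vehicle. A gene was included when its platform symbol was hox with a cluster letter from a to d and a number. This gave 59 probe sets among the 15502 probe sets tested, and 42 genes among 13500 rows, a row being a gene or a probe set without a single gene symbol. Current annotation of the zebrafish genome (GRCz12tu) lists 49 Hox genes. The 7 not analysed here are hoxb1b, hoxc10a, hoxc12a, hoxd12a, hoxa13a, hoxb13a and hoxc13b. The genes measured were 6 of 7 in the hoxaa cluster, 5 of 5 in hoxab, 10 of 11 in hoxba, 3 of 4 in hoxbb, 9 of 11 in hoxca, 3 of 4 in hoxcb and 6 of 7 in hoxda. Members were 9 anterior genes (paralogue groups 1 to 3), 16 central genes (groups 4 to 8) and 17 posterior genes (groups 9 to 13).

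The 12 arrays formed 4 groups of 3. They were TCDD at 3 days post amputation (dpa), vehicle at 3 dpa, TCDD at 2 dpa and vehicle at 2 dpa. All larvae were of the AB strain and lost the caudal fin at 2 days of age. They then spent 1 h in water with 0.5 ng/mL TCDD in the exposed groups, or with DMSO in the vehicle groups, so amputation is common to all 4 groups. Each array carried RNA from 150 pooled fins, so p-values describe the spread between pools and not between larvae. In pooled tissue, fewer cells of a type and less RNA per cell cannot be told apart.

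Hox genes encode homeodomain transcription factors that lie in clusters, and a gene's place in its cluster matches where and when it acts along the body axis. Low paralogue numbers act in the hindbrain and anterior trunk, and high numbers act in the posterior trunk, the tail and the outer part of paired appendages. In zebrafish, hoxa13 and hoxd13 genes are needed for the formation of fin rays. TCDD binds the aryl hydrocarbon receptor, which induces cyp1a, a cytochrome P450 enzyme.

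Values are log2 of the deposited ratios, and a gene's value is the mean of its probe sets. Over the 12 arrays the ratios have a median of 1 in 55.9% of the Hox probe sets and a lower median in the others. A value below 0 is thus not always below the gene's own median. The values give no absolute level, so 1 Hox gene cannot be ranked above another and the labelled tissue cannot be checked by marker levels. Differences are between group means, each with a standard error (SE) taken from limma. A gene was called when its Benjamini-Hochberg adjusted p over all 13500 rows was under 0.05. The number of arrays limits precision. The half-width of the 95% interval had a median of 0.27 over the Hox genes for TCDD against vehicle on either day.

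Several measures of the arrays moved with the groups. The exposure marker cyp1a was 7.92 ± 1.09 (SE) higher with TCDD at 3 dpa and 8.70 ± 1.09 (SE) higher at 2 dpa. In GAPDH, the log2 difference of the 5′ over the 3′ control probe set was 0.17 to 0.49 on TCDD arrays and -0.10 to 0.08 on vehicle arrays. The spiked hybridisation controls read 0.26 to 0.34 on the 3 vehicle arrays at 3 dpa and on TCDD replicate 2 at 3 dpa, and -0.14 to -0.01 on the other 8 arrays. The 17 measured of 22 skeletal muscle markers had a median of 1.26 on TCDD replicate 3 at 3 dpa, against -0.36 to 0.26 on the other 11 arrays. The 8 measured of 14 notochord markers also read highest there, at 0.35. In each of the 4 groups replicate 3 had the widest interquartile range of log2 values over all probe sets. It was 0.57 in TCDD fins and 0.57 in vehicle fins at 3 dpa, and 0.52 and 0.39 at 2 dpa. In a fit with the hybridisation level as a block, its effect is estimated from the 3 TCDD arrays at 3 dpa alone. No other group holds both levels. TCDD against vehicle at 3 dpa is then TCDD replicate 2 against the vehicle arrays. The part of these measures in the Hox results was not tested beyond the alternatives given below. No alternative adjusts for the GAPDH difference.

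At 3 dpa, hoxb5a was called, and it rose in TCDD fins. This central gene of the hoxba cluster belongs to the group 5 genes, which act in axial patterning. It read 0.09, 0.28 and 0.51 on the TCDD arrays, against -0.27, -0.33 and -0.43 on the vehicle arrays. Each TCDD array lay above each vehicle array. The difference was 0.64 ± 0.11 (SE), a 1.56-fold higher ratio with a 95% interval of 1.31 to 1.85, and its limma adjusted p was 0.0412. The 1 Hox gene called stands beside 77 of all rows, or 0.570% (0.259% higher), of which 45.5% were higher in TCDD fins. With the hybridisation level as a block, 78.2% of 193 called rows were higher and no Hox gene was called. In that fit hoxb5a differed by 0.62 with an adjusted p of 0.119. The call was also lost without moderation of variances (adjusted p 0.0851) and with only the groups compared in the fit (adjusted p 0.190). Its adjusted p was 0.0975 without TCDD replicate 3, the array with high muscle markers, where the difference was 0.53. The call held in 3 of the 12 fits that each left out 1 array (TCDD replicate 1 or 2 at 3 dpa, or TCDD replicate 3 at 2 dpa). The single probe set of hoxb5a has a median ratio below 1, at 0.836, and without such probe sets the gene is not measured.

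No neighbour in the same cluster passed the test. Differences at 3 dpa were above 0 for 8 of the 10 hoxba genes, but 5 of these 8 lay between 0.01 and 0.05. The largest after hoxb5a was in hoxb3a, a group 3 gene of the hindbrain and pharyngeal region. It read 0.32, 0.33 and 0.42 in TCDD fins, against -0.05, 0.05 and -0.54 in vehicle fins. The groups did not overlap, and the difference of 0.54 ± 0.14 (SE) had an adjusted p of 0.119. Without vehicle replicate 3 the difference was 0.36. The posterior hoxb9a read 0.08, 0.02 and 0.50 in TCDD fins, against -0.26, -0.20 and -0.15 in vehicle fins. It too was without overlap, with a difference of 0.41 ± 0.12 (SE) and an adjusted p of 0.142. The difference was 0.26 without TCDD replicate 3 and 0.23 with the hybridisation block. In current annotation the gene model of hoxb3a also spans hoxb4a, hoxb5a and hoxb6a, so probe sets for transcripts of this stretch may share sequence. The same limit holds for hoxa3a, hoxc3a and hoxd3a, whose gene models span other measured genes, hoxc6a and hoxc9a among them. The differences of hoxb4a (0.01) and hoxb6a (-0.03) were near 0.

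The hoxca and hoxcb clusters were not tested against each other, and their values at 3 dpa stand side by side here. Of the 9 hoxca genes, 6 had differences below 0, and the lowest was in hoxc6a, a group 6 gene of trunk patterning. It read -0.10, 0.14 and -0.21 in TCDD fins, against 0.27, 0.33 and 0.52 in vehicle fins. All TCDD arrays lay below all vehicle arrays, with a difference of -0.43 ± 0.11 (SE) and an adjusted p of 0.0992. Without TCDD replicate 2, the 1 TCDD array at 3 dpa with high hybridisation controls, hoxc6a was called (-0.53, adjusted p 0.0338), and 393 rows were called in all. With the hybridisation block its difference was -0.23. The single probe set of hoxc6a also has a median ratio below 1, at 0.970. In hoxcb, hoxc6b (0.18), hoxc11b (0.35) and hoxc12b (0.28) were all above 0. The posterior hoxc11b read 0.25, 0.13 and 0.37 in TCDD fins and -0.02, -0.01 and -0.25 in vehicle fins, with an adjusted p of 0.213. Its paralogue hoxc11a in hoxca had a difference of 0.20.

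Counted over all members, TCDD and vehicle arrays did not overlap at 3 dpa for 8 of the 42 genes, or 19.0%, beside 16.6% of all rows. Higher in TCDD fins were 6 (hoxa2b, hoxb3a, hoxb5a, hoxb9a, hoxc11b and hoxc12b), beside 8.19% of all rows, and lower were hoxb10a and hoxc6a, beside 8.41%. In hoxc12b the lowest TCDD array (0.0004) lay just above the highest vehicle array (-0.0025). An unadjusted limma p under 0.05 was also reached by 8 Hox genes, beside 16.0% of all rows. The median difference was 0.01 for Hox genes and 0.01 for all rows, and the median absolute difference was 0.11 for Hox genes and 0.16 for all rows. No Hox gene differed by over 1 on the log2 scale, which 3.71% of all rows did.

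**Figure D1:**
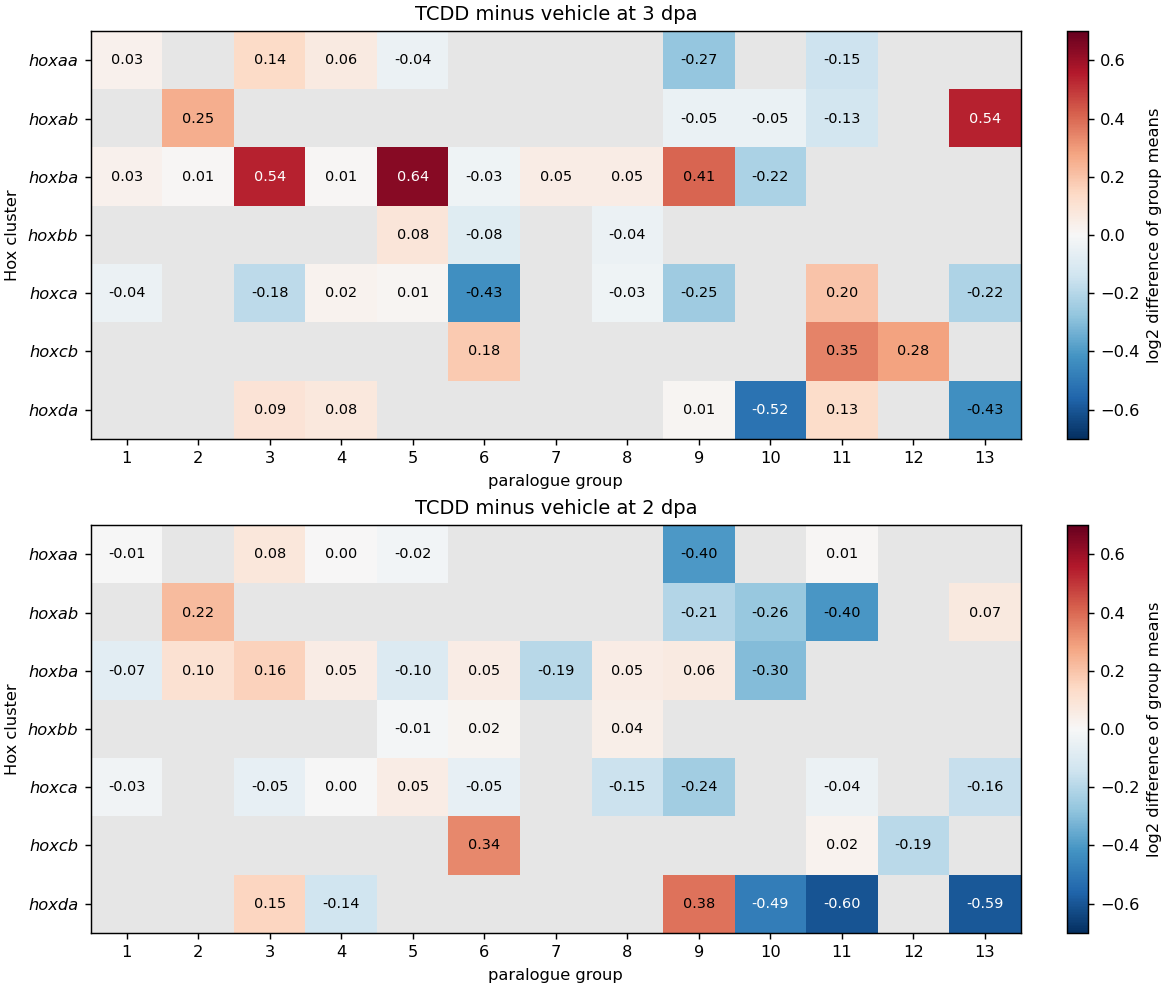
Difference of mean log2 ratio, TCDD minus vehicle, for each measured Hox gene by cluster (rows) and paralogue group (columns), at 3 dpa (upper panel) and 2 dpa (lower panel), with red for higher and blue for lower in TCDD fins and grey where no gene was measured. At 3 dpa the highest values are hoxb5a (0.64), hoxb3a and hoxa13b (0.54 each), and at 2 dpa the lowest are hoxd11a (-0.60) and hoxd13a (-0.59).

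At 2 dpa the lower values lay in the posterior genes, but no Hox gene was called. Of the 17 posterior genes, 12 had differences below 0, with a median of -0.21. The median was 0.00 over the 16 central genes and 0.08 over the 9 anterior genes. Of all 13500 rows, 7025 were below 0. In 14 of the central and anterior genes every probe set had a median ratio below 1, which held for no posterior gene. These 14 had small SDs within groups, with a median of 0.09. The other 7 central and 4 anterior genes had medians of 0.00 and 0.12, so few genes of like spread stand beside the posterior ones. The fit called 26 of all rows, or 0.193%, of which 57.7% were higher in TCDD fins (42.8% of 166 after quantile normalization, where no Hox gene was called either). An unadjusted limma p under 0.05 was reached by 6 Hox genes, all posterior and all lower in TCDD fins, beside 10.7% of all rows in either direction and 6.81% lower. All 6 arrays at 2 dpa had low hybridisation controls, so this comparison does not cross that split. The GAPDH 5′ over 3′ difference did separate the treatments at 2 dpa. It was 0.17 to 0.28 on TCDD arrays and 0.01 to 0.03 on vehicle arrays. Within this day, TCDD and the GAPDH measure cannot be told apart. The same holds at 3 dpa, with 0.18 to 0.49 on TCDD arrays and -0.10 to 0.08 on vehicle arrays. It also holds for the mean TCDD effect over both days.

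The largest difference at 2 dpa was in hoxd11a, a group 11 gene of the posterior trunk and appendage. It read -0.37, -0.30 and 0.00 in TCDD fins, against 0.42, 0.49 and 0.24 in vehicle fins. The groups were apart, with a difference of -0.60 ± 0.22 (SE) and an adjusted p of 0.360. At 3 dpa its difference was 0.13. The group 11 paralogue hoxa11b read -0.02, 0.07 and -0.02 in TCDD fins, against 0.75, 0.24 and 0.26 in vehicle fins. It did not overlap either, with a difference of -0.40 ± 0.14 (SE), while vehicle replicate 1 stood well above the other vehicle arrays. Without that array the difference was -0.24. Of the other group 11 genes, hoxa11a, hoxc11a and hoxc11b had differences of 0.01, -0.04 and 0.02.

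Group 9 genes, which in mice act in the trunk and in early limb buds, did not share a direction. At 2 dpa hoxa9a was lower (-0.36, -0.30 and -0.51 in TCDD fins, against 0.10, -0.11 and 0.06 in vehicle fins), with a difference of -0.40 ± 0.16 (SE) and an adjusted p of 0.411. The arrays of hoxc9a were also apart, at 0.03, 0.05 and -0.05 in TCDD fins, against 0.24, 0.36 and 0.16 in vehicle fins. In contrast, hoxd9a read -0.02, 0.85 and 0.10 in TCDD fins, against -0.08, -0.09 and -0.05 in vehicle fins. Its difference of 0.38 came mostly from TCDD replicate 2. The remaining members, hoxa9b and hoxb9a, had differences of -0.21 and 0.06.

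Over all members, the arrays did not overlap at 2 dpa for 10 of the 42 genes, or 23.8%, beside 20.8% of all rows. In TCDD fins 7 of these were lower, or 16.7% of members beside 12.2% of all rows, and all were posterior: hoxa9a, hoxa10b, hoxa11b, hoxb10a, hoxc9a, hoxd10a and hoxd11a. Higher were hoxc6b, hoxd3a and hoxd9a, beside 8.57% of all rows. As above, 14 of the central and anterior genes had only probe sets of median below 1. In hoxc6b the lowest TCDD array (-0.0064) lay just above the highest vehicle array (-0.0108), and TCDD replicate 3 read 0.81. The median difference was -0.02 for Hox genes and -0.01 for all rows, and the median absolute difference was 0.09 for Hox genes and 0.13 for all rows.

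Paralogue group 10 was below 0 on both days in each of its 3 measured genes, and its hoxd10a and hoxb10a were called in the mean TCDD effect over both days. These 2 calls are 4.76% of members, beside 5.80% of all rows called and 3.67% called lower. The same sign on both days was seen for 70.3% of all rows. The 2 measured group 2 genes were above 0 on both days. Over the alternative fits, 2 to 3 of the group 10 genes were below 0 at 3 dpa, and all 3 were at 2 dpa. In mice, group 10 genes act in patterning the lumbar vertebrae and the hind limb. On the TCDD arrays hoxd10a read -0.47, -0.29 and 0.01 at 3 dpa, against 0.29, 0.52 and -0.01 on the vehicle arrays. At 2 dpa it read -0.26, -0.07 and -0.50 in TCDD fins, against 0.18, 0.42 and 0.03 in vehicle fins. The arrays overlapped at 3 dpa through replicate 3 of both treatments, and they were apart at 2 dpa. The mean TCDD effect on hoxd10a was -0.50 ± 0.13 (SE), a ratio of 0.706 with a 95% interval of 0.581 to 0.859, and its limma adjusted p was 0.0482.

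For hoxb10a, the mean of 3 probe sets, the TCDD arrays read -0.45, -0.26 and -0.28 at 3 dpa, against -0.12, -0.20 and 0.01 on the vehicle arrays. At 2 dpa they read -0.43, -0.30 and -0.41, against 0.02, -0.18 and -0.07 on the vehicle arrays. All 6 TCDD arrays lay below all 6 vehicle arrays, which held for no other Hox gene and for 4.66% of all rows in either direction (2.90% lower). The mean TCDD effect on hoxb10a was -0.26 ± 0.07 (SE), a ratio of 0.834, with a limma adjusted p of 0.0488. Its probe sets differed in size, with mean effects of -0.55, -0.25 and 0.02, and the last of these has a median ratio below 1. Both group 10 calls sat close to the threshold. With each of the 12 arrays left out in turn, hoxd10a was called in 2 of 12 fits (without replicate 3 of either treatment at 3 dpa) and hoxb10a in 1 of 12 (without TCDD replicate 2 at 3 dpa). With the hybridisation block neither was called (adjusted p 0.126 and 0.164). Both calls were also lost with the probe set of highest mean ratio, with robust eBayes and without moderation.

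The third gene of the group, hoxa10b, read -0.57, -0.52 and -0.37 in TCDD fins at 3 dpa, against -0.34, -0.33 and -0.66 in vehicle fins. At 2 dpa it read -0.38, -0.47 and -0.48 in TCDD fins, against -0.20, -0.13 and -0.20 in vehicle fins. It overlapped at 3 dpa, where its difference was -0.05, and not at 2 dpa, where it was -0.26 ± 0.10 (SE) with an adjusted p of 0.395. The mean TCDD effect called 783 of all rows, or 5.80%, of which 36.8% were higher in TCDD fins (56.1% of 360 with the hybridisation block). The 2 Hox genes called make up 4.76% of the members, and 3.67% of all rows were called lower. A mean effect with an unadjusted limma p under 0.05 was seen for 8 Hox genes, beside 22.2% of all rows. Besides the group 10 pair these were hoxb3a (0.35), hoxb5a (0.27) and hoxb9a (0.23) on the higher side, beside 9.47% of all rows, and hoxa9a (-0.34), hoxa11b (-0.27) and hoxc6a (-0.24) on the lower side, beside 12.7%.

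**Figure D2:**
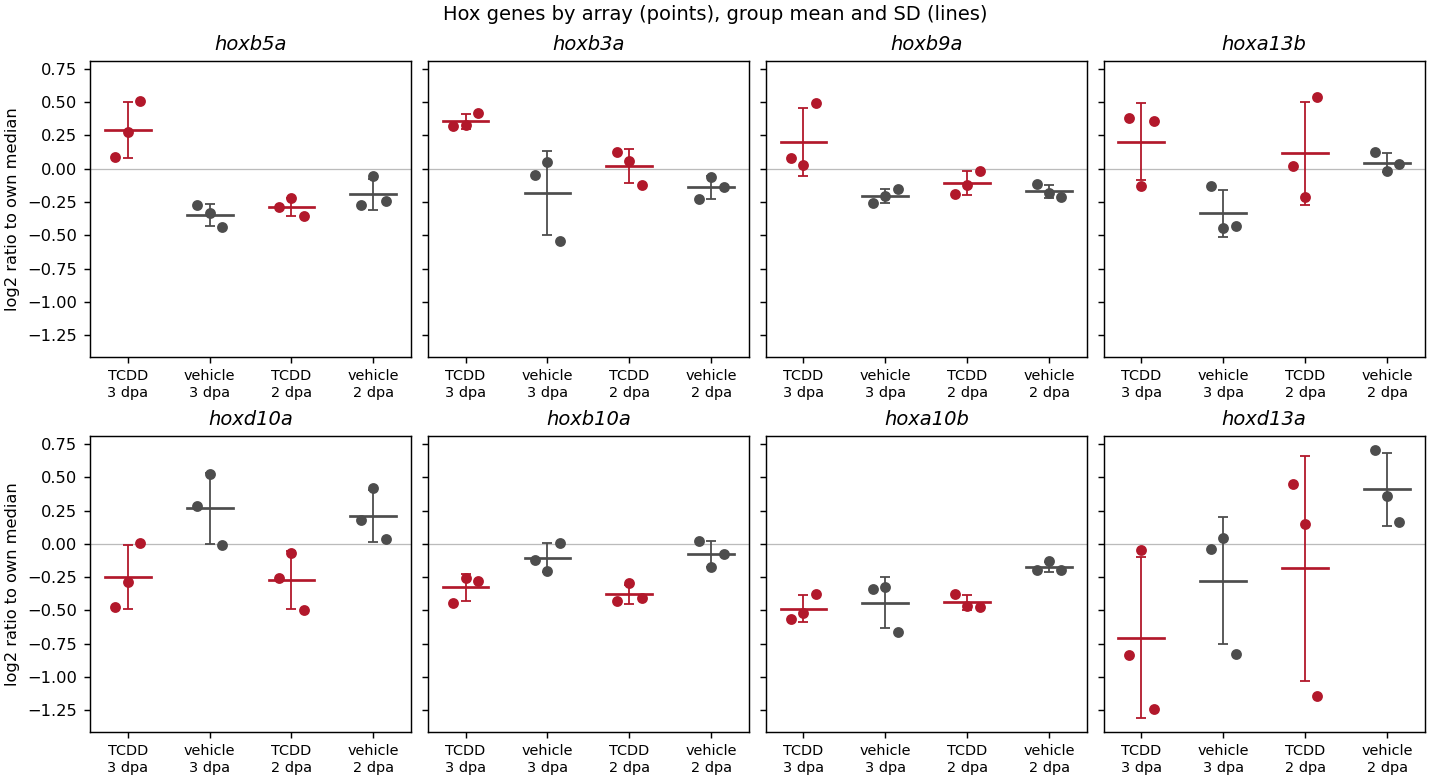
Log2 of the deposited ratio for 8 Hox genes in TCDD fins (red) and vehicle fins (grey) at 3 dpa and 2 dpa. Values are averaged over each gene's probe sets. Points are arrays, and lines are the group mean and SD. The own median of the axis label holds only for probe sets with a deposited median of 1. For hoxb5a the 3 TCDD arrays at 3 dpa lie between 0.09 and 0.51 while all other arrays are below 0, for hoxb10a all TCDD arrays lie below all vehicle arrays, and hoxd13a shows the widest spread.

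The cluster ends, group 13, are the Hox genes most closely tied to the formation of the outer fin, and none of the 3 measured was called. The log2 ratio of hoxa13b was 0.38, -0.13 and 0.36 in TCDD fins at 3 dpa, against -0.13, -0.45 and -0.43 in vehicle fins. The overlap lay between TCDD replicate 2 and vehicle replicate 1, which differed by under 0.01. The difference was 0.54 ± 0.20 (SE), with an adjusted p of 0.228. At 2 dpa hoxa13b read 0.02, -0.21 and 0.54 in TCDD fins and 0.12, -0.02 and 0.03 in vehicle fins, a difference of 0.07.

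The other group 13 genes had differences below 0 on both days and a wide spread. In hoxd13a the TCDD arrays at 3 dpa read -0.83, -0.05 and -1.24, against -0.04, 0.04 and -0.83 on the vehicle arrays. At 2 dpa they read 0.45, 0.15 and -1.15, against 0.71, 0.36 and 0.16 on the vehicle arrays. Replicate 3 was the lowest array in each of the 4 groups. The SD within groups was 0.59, the largest of the 42 genes. The differences of -0.43 at 3 dpa and -0.59 at 2 dpa had 95% intervals that include 0. The values of hoxc13a were 0.00, 0.10 and -1.09 in TCDD fins at 3 dpa and 0.00, -0.04 and -0.30 in vehicle fins. At 2 dpa they were 0.36, -0.05 and -0.37 in TCDD fins and 0.18, 0.12 and 0.13 in vehicle fins. Without TCDD replicate 3 at 3 dpa, the array with high muscle markers, 2 of the 3 group 13 genes were higher in TCDD fins at 3 dpa in place of 1. With the hybridisation block, which at 3 dpa compares TCDD replicate 2 alone with the vehicle arrays, all 3 were higher.

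Across the days, 14 Hox genes were higher in TCDD fins at both 3 dpa and 2 dpa, 14 were lower at both and 14 differed in sign. Of the 14 that were lower at both, 9 were posterior genes. The same sign at both days was seen for 28 of 42 genes, or 66.7%, beside 70.3% of all rows. The posterior genes below 0 were 10 of 17 at 3 dpa and 12 of 17 at 2 dpa, beside 6418 and 7025 of all 13500 rows. Leaving out each array, or changing the scaling or the choice of probe sets, gave 8 to 11 of 17 at 3 dpa and 11 to 14 of 17 at 2 dpa. The 8 of 17 at 3 dpa came without TCDD replicate 3 or vehicle replicate 1 of that day, and with the hybridisation block.

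**Figure D3:**
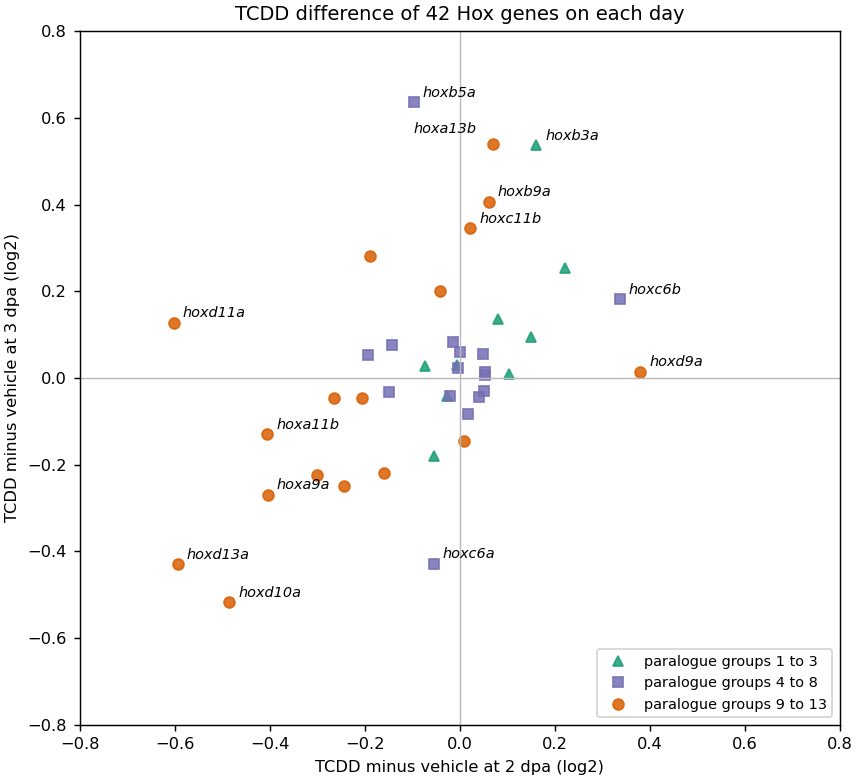
TCDD minus vehicle difference of mean log2 ratio at 2 dpa (horizontal axis) and 3 dpa (vertical axis), 1 point per Hox gene, with symbols for anterior, central and posterior paralogue groups. Posterior genes spread from -0.60 to 0.38 at 2 dpa and from -0.52 to 0.54 at 3 dpa, while most central genes lie near 0 on both axes, with hoxb5a, hoxc6a and hoxc6b outside.

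The TCDD difference was larger at 3 dpa than at 2 dpa by 0.73 ± 0.16 (SE) in hoxb5a, which had the lowest unadjusted p of the members (0.0010) and an adjusted p of 1.00. No row of the 13500 was called for this difference of differences (0.00%). An unadjusted p under 0.05 was reached by 3 Hox genes, hoxb5a, hoxd11a (0.73) and hoxc6a (-0.37), beside 1.44% of all rows. The value of hoxd11a was 0.44 without TCDD replicate 3 at 3 dpa, the array with high muscle markers, and that of hoxc6a was -0.17 with the hybridisation block. At 2 dpa hoxb5a read -0.29, -0.22 and -0.35 in TCDD fins and -0.27, -0.06 and -0.24 in vehicle fins, which overlapped. The next by unadjusted p were hoxb9a (0.35, or 0.20 without TCDD replicate 3 at 3 dpa) and hoxc12b (0.47). Of the 17 posterior genes, 12 had a higher TCDD difference at 3 dpa than at 2 dpa, with a median of 0.16. The same was seen for 7372 of all 13500 rows.

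Between the days, most posterior Hox genes were lower at 3 dpa than at 2 dpa in vehicle fins. The difference was below 0 for 15 of 17 posterior genes, with a median of -0.25, for 5 of 16 central genes and for 4 of 9 anterior genes. Of all 13500 rows, 6555 were below 0. Without the 14 genes whose every probe set had a median ratio below 1, it was below 0 for 2 of 7 central and 2 of 4 anterior genes. No row was called (0.00%), and an unadjusted limma p under 0.05 was reached by 4 Hox genes, beside 3.64% of all rows. Arrays of the 2 days did not overlap for 9 of 42 genes, or 21.4%, beside 11.1% of all rows. Of these, 8 were lower at 3 dpa, 19.0% of members beside 5.11% of all rows, and 7 of the 8 were posterior: hoxa10b, hoxa11b, hoxa13b, hoxc9a, hoxc13a, hoxd11a and hoxd13a, with hoxb5a as the central one. In hoxb5a the highest vehicle array at 3 dpa (-0.2737) lay just below the lowest at 2 dpa (-0.2724). The exception on the higher side, beside 5.98% of all rows, was hoxc6a. It read 0.27, 0.33 and 0.52 at 3 dpa, against -0.06, -0.03 and -0.10 at 2 dpa, a difference of 0.43 ± 0.11 (SE), or 0.14 with the hybridisation block.

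All vehicle arrays at 3 dpa had high and all vehicle arrays at 2 dpa low hybridisation controls, so within vehicle fins the day and this level cannot be told apart. A block for the level is informed only by the TCDD arrays at 3 dpa, where replicate 2 alone has the high level. With this block, 11 of 17 posterior genes were lower at 3 dpa and the median was -0.15, beside a median of -0.07 for all rows. The vehicle arrays at 2 dpa are also the ones against which TCDD was compared at that day. The values of hoxa10b were -0.26 for TCDD against vehicle at 2 dpa and -0.27 for 3 dpa against 2 dpa in vehicle fins. For hoxa11b both were -0.40 (-0.24 and -0.23 without vehicle replicate 1 at 2 dpa), and for hoxd11a they were -0.60 and -0.37.

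In TCDD fins the posterior genes were split between the days, with 8 of 17 lower at 3 dpa and a median of 0.02. Of all 13500 rows, 5748 were lower. No row was called (0.00%), and an unadjusted limma p under 0.05 was reached by 4 Hox genes, beside 3.76% of all rows. Arrays did not overlap for 4 of 42 genes, or 9.52%, beside 5.33% of all rows, and all were higher at 3 dpa, beside 3.38% of all rows: hoxa4a, hoxb3a, hoxb5a and hoxb9a. In hoxa4a the lowest TCDD array at 3 dpa (0.0058) lay just above the highest at 2 dpa (0.0049). Its TCDD replicate 3 at 3 dpa, the array with high muscle markers, read 0.83. Vehicle replicate 3 at 3 dpa, where the muscle markers had a median of -0.33, read 0.70 in hoxa4a. The difference in hoxb5a was 0.58 ± 0.11 (SE), on the same TCDD arrays at 3 dpa that gave its difference from vehicle. The posterior hoxc9a was below 0 in both treatments, at -0.48 ± 0.20 (SE) in TCDD fins and -0.47 ± 0.20 (SE) in vehicle fins. On the TCDD arrays it read 0.03, -0.52 and -0.93 at 3 dpa, which overlapped 0.03, 0.05 and -0.05 at 2 dpa. The difference in TCDD fins was -0.25 without TCDD replicate 3 at 3 dpa and -0.73 without replicate 1. The central hoxd4a read -0.30, 0.22 and -0.25 at 3 dpa and -0.33, -0.28 and -0.50 at 2 dpa in TCDD fins. Its difference of 0.26 was 0.10 without TCDD replicate 2 at 3 dpa, and its probe sets gave 0.55 and -0.03.

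**Figure D4:**
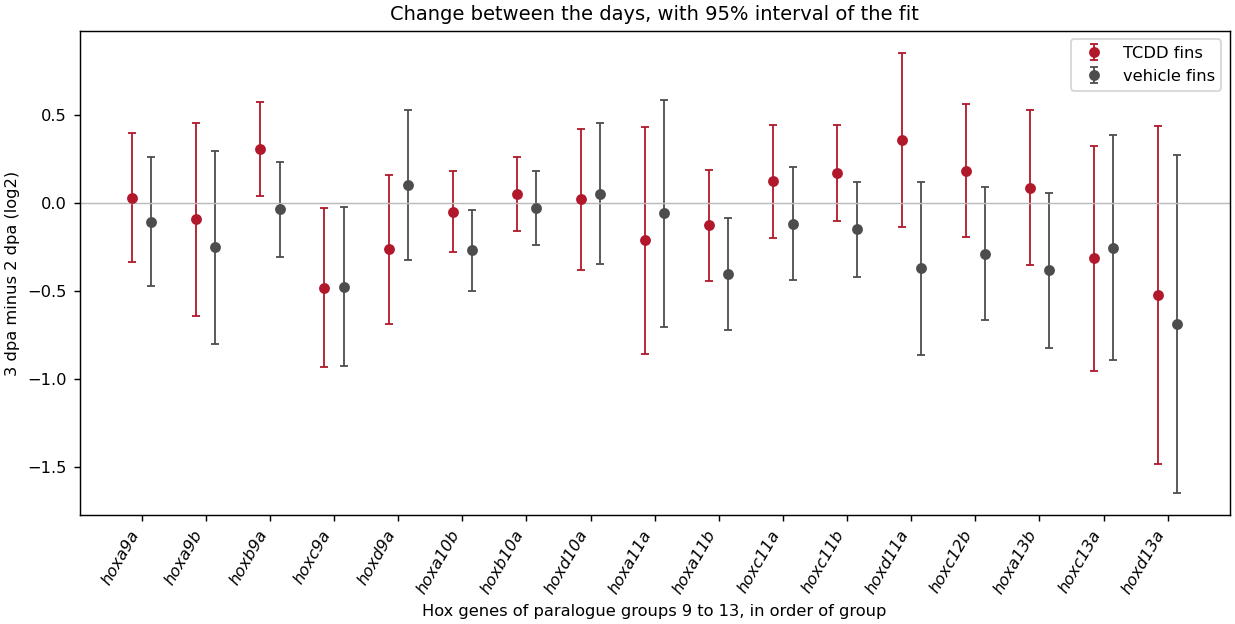
Change between the days (3 dpa minus 2 dpa, difference of mean log2 ratio) with the 95% interval of the limma fit for the 17 posterior Hox genes, in TCDD fins (red) and vehicle fins (grey). In vehicle fins 15 of the 17 points lie below 0, and in TCDD fins 8 do, while the intervals of most genes include 0 in both treatments.

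Most anterior and central genes had small differences between groups, and many of them have probe sets whose deposited median over the 12 arrays lies below 1. Such probe sets make up 44.1% of the 59 Hox probe sets, beside 22.5% of all probe sets. Dividing by the median with a floor under the divisor would give such medians. A fixed divisor only shifts log2 values and leaves their spread as it was. Over the 12 arrays the SD had a median of 0.08 in these Hox probe sets and 0.29 in the others. In 14 Hox genes every probe set was of this kind, and all 14 belong to groups 1 to 8. They were hoxa1a, hoxb1a, hoxc1a, hoxb2a, hoxd3a, hoxb4a, hoxc4a, hoxa5a, hoxb5a, hoxb5b, hoxc5a, hoxb6a, hoxc6a and hoxb8b. The SD within groups had a median of 0.09 over these 14 genes, 0.14 over the 9 genes with some such probe sets and 0.25 over the other 19. If such a floor was used, the median signal of these probe sets lay below it. This would include hoxb5a and hoxc6a, with median ratios of 0.836 and 0.970. The deposited ratios give no intensity, so the part of low signal in the smaller SDs was not tested. The ranges over the 12 arrays were widest among these 14 in hoxb5a, at 0.94, and narrowest at 0.15.

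**Figure D5:**
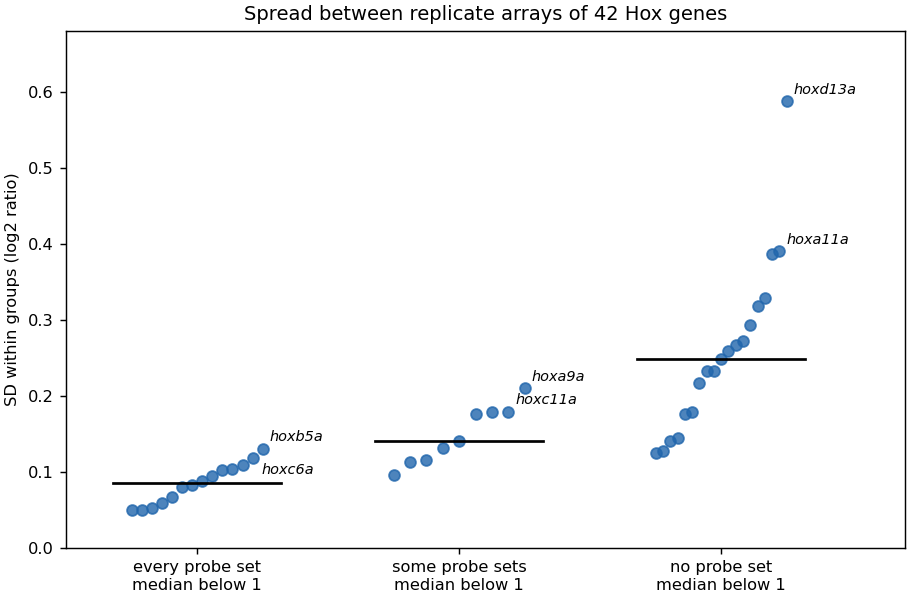
SD of the log2 ratio within groups of replicate arrays for the 42 Hox genes, 1 point per gene, split by whether all, some or none of the gene's probe sets have a deposited median ratio below 1, with the median of each class as a line. The medians are 0.09, 0.14 and 0.25, and hoxb5a is the most variable gene of the first class.

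Probe sets of the same gene did not always read alike. For 8 Hox genes the array holds a pair of probe sets with the same transcript cluster name and the opposite orientation letters A and S. The A set had a median below 1 in all 8 pairs and the S set in 2, and the A set varied less in 6. In hoxa10b the S set differed by -0.54 at 2 dpa and the A set by 0.01. With the A sets of all such pairs left out, hoxb10a had a mean TCDD effect of -0.40 in place of -0.26 and stayed called (adjusted p 0.0234). In hoxa9a both probe sets were lower at 2 dpa, at -0.63 and -0.18, and in hoxb9a they were 0.58 and 0.23 higher at 3 dpa. In hoxd4a they differed in sign on both days.

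The remaining members gave small or irregular values. The hindbrain and second pharyngeal arch gene hoxa2b read 0.06, 0.02 and 0.43 in TCDD fins at 3 dpa and -0.02, -0.01 and -0.22 in vehicle fins, with a mean TCDD effect of 0.24, and it overlapped at 2 dpa. In hoxab this and hoxa13b were the highest values, and hoxa11b the lowest. The mean effect in hoxaa ran from -0.34 in hoxa9a to 0.11 in hoxa3a. In hoxbb it ran from -0.03 in hoxb6b to 0.04 in hoxb5b, and hoxb8b lay between them. In hoxca it ran from -0.25 in hoxc9a to 0.08 in hoxc11a, in hoxcb from 0.05 in hoxc12b to 0.26 in hoxc6b, and in hoxda from -0.51 in hoxd13a to 0.20 in hoxd9a. Across the 3 group 1 genes the differences on either day were between -0.07 and 0.03, and across the 4 group 4 genes between -0.14 and 0.08. Of the rest, hoxb7a (0.05 at 3 dpa and -0.19 at 2 dpa), hoxb8a (0.05 on each day), hoxc3a (-0.18 and -0.05) and hoxc8a (-0.03 and -0.15) had arrays that overlapped on both days. A single array set the value of hoxa11a, which read -1.06 on TCDD replicate 3 at 3 dpa and -0.13 to 0.45 elsewhere.

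Genes that work with Hox proteins or act on Hox clusters were described from 4 lists. Hox proteins bind DNA together with TALE homeodomain cofactors, and 13 of 15 listed cofactors were measured. The mean TCDD effect was below 0 for 6 of them and above 0 for 7, with a median of 0.00. It was called for meis1b alone, at -0.48 ± 0.10 (SE; limma adjusted p 0.0284), with -0.69 at 3 dpa and -0.27 at 2 dpa. This 1 call of 13 stands beside 5.80% of all rows called and 3.67% called lower. The next were pknox1.1 (0.25, adjusted p 0.0742) and pknox2 (-0.44, adjusted p 0.0928). On neither day alone was a cofactor called.

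Retinoic acid, Cdx factors and Gdf11 set the span of Hox activity along the axis, and 15 of 21 such regulators were measured. Of these, 9 were lower and 6 higher in the mean TCDD effect, with a median of -0.04, and none was called. The largest difference was in aldh1a2, which makes retinoic acid, at -1.22 ± 0.38 (SE; limma adjusted p 0.0877). For cyp26b1, which degrades retinoic acid, it was -0.42 ± 0.12 (SE; limma adjusted p 0.0641), and for crabp2b, which binds retinoic acid in the cell, -0.50 (adjusted p 0.118). The related cyp26a1 went the other way, at 0.25 (limma adjusted p 0.234).

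Polycomb proteins hold Hox clusters silent and trithorax proteins keep them active, and 18 of 30 listed genes were measured. The mean TCDD effect was lower for 14 and higher for 4, with a median of -0.07 beside 0.00 for all rows. The days differed, with 8 lower and 10 higher at 3 dpa (median 0.02), and 13 lower and 5 higher at 2 dpa (median -0.08). Called were 2 of the 18, both lower, beside 5.80% of all rows called and 3.67% called lower. These were wdr5, a subunit of the histone methyltransferase complexes of the trithorax group, at -0.28 ± 0.06 (SE; limma adjusted p 0.0273), and rbbp4, a histone-binding subunit of Polycomb and other chromatin complexes, at -0.77 ± 0.17 (SE; limma adjusted p 0.0333). The Polycomb gene bmi1a was at 0.82 with an adjusted p of 0.0584. Of 14 homeobox genes beside or related to the clusters, 6 were measured. Of these, evx1 was called, at 0.87 ± 0.19 (SE; limma adjusted p 0.0287), with 1.19 at 3 dpa and 0.55 at 2 dpa. It belongs to the even-skipped family, whose members lie next to HoxA and HoxD clusters in mammals. In zebrafish evx1 is needed for the joints of fin rays.

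Markers of cell types in the fin were described by their counts, with no test of a list, beside the 5.80% of all rows called in the mean TCDD effect. The 12 measured of 19 markers of fin mesenchyme and blastema had list medians of -0.38 to -0.23 on TCDD arrays at 3 dpa, against -0.10 to -0.01 on vehicle arrays. At 2 dpa they were -0.25 to 0.05 on TCDD arrays and 0.03 to 0.12 on vehicle arrays. This list shares aldh1a2 with the regulators above. In the mean TCDD effect 7 of the 12 were lower and prrx1b was called (-1.31, adjusted p 0.0046). Of 8 measured of 17 actinotrichia markers, 7 were lower and none was called. Of 21 measured of 23 epidermal markers, 15 were higher, and dlx4b (1.63), dlx3b (0.66) and dspa (0.36) were called higher and krt91 (-2.06) lower. Among 15 measured of 20 neural markers 12 were higher, and sox3 was called (0.95). Of 8 measured of 13 red blood cell markers 6 were higher, and all 17 measured muscle and all 8 measured notochord markers were higher, none of them called. The notochord and actinotrichia lists share col2a1a. At 2 dpa alone, 12 of the 17 muscle and 5 of the 8 notochord markers were higher, with medians of 0.08 and 0.04. Both lists read highest on TCDD replicate 3 at 3 dpa. The deposited ratios hold no 0, so no marker can be said to be absent. The part of these markers in the Hox differences was not tested.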

How the data were processed

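Caudal fin RNA of 12 pools was measured on Affymetrix zebrafish arrays. The submitters' processing notes name GCRMA without a version, and the authors deposited linear ratios. Their scaling was read off the numbers. Of 15617 rows, 12064 have a median of 1 across arrays (tolerance 1e-06), 3553 a lower one and 0 a higher one. Most probe sets are thus expressed relative to their own median. The lowest ratio was 0.000773, so log2 was taken without a pseudocount.

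Control probe sets (115) entered no test. Of the other 15502, 10795 have 1 gene symbol, 135 several and 4572 none in the platform annotation. Symbols were updated by Entrez identifier (10711 matched, 1 changed) with the gene table of GRCz12tu, used for names and for which genes overlap. The array's own build is not given in the sources used here, and no coordinates are printed. Probe sets of a gene were averaged.

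Samples were grouped by their labels. The 4 group means were fitted to all 12 arrays with limma 3.58.1 in R 4.3.3 (lmFit, eBayes, two-sided, 8 residual degrees of freedom and 2.16 from the prior), and contrasts were adjusted by Benjamini-Hochberg over 13500 rows. The pipeline was tested on simulated data. For a single gene the smallest exact permutation p of 3 arrays against 3 is 0.1. A hybridisation level block separates the 4 arrays with high spiked controls, a split made from the data and not from the labels. Replicate numbers were not shown to pair the samples: correlations of same-numbered deviations ran from -0.26 to 0.50.

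The members, gene lists and comparisons were chosen with earlier results of these data known. Named were Hox genes called in any contrast, the 5 of lowest unadjusted p in each, group 13, the highest and lowest mean effect in each cluster, and called or otherwise up to 3 leading list genes. Other Hox genes were named after their values were seen. Alternatives were other scalings, a pseudocount, other probe set rules, blocks, other variance settings and leaving out each array.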

Additional observations from a re-analysis of the deposited data

How the results depend on the processing

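The count of Hox genes called stayed at 0 under every alternative run for TCDD against vehicle at 2 dpa, for the change between days in either treatment and for the difference of TCDD effects. The 1 Hox gene called at 3 dpa became 0 with probe sets of median below 1 left out (hoxb5a is then not measured), with the replicate block, with the hybridisation level block, with no moderation of variances, and with only the groups compared. Leaving out 1 array at a time gave 0 to 2. The 2 called in the mean TCDD effect became 0 with the probe set of highest mean ratio, with every probe set by itself, with the hybridisation level block, with robust eBayes and with no moderation, and 1 (hoxd10a) with the replicate block. Leaving out 1 array at a time gave 0 to 3. With quantile normalization the mean effect called hoxb3a, hoxb5a and hoxd10a, and with array median centring hoxb5a and hoxd10a. The adjusted p over alternatives ran from 0.0264 to 0.190 for hoxb5a at 3 dpa, from 0.0234 to 0.164 for hoxb10a and from 0.0346 to 0.126 for hoxd10a in the mean effect. None of these 3 reversed. The change of hoxa13b between days in vehicle fins was 0.12 with the hybridisation level block, in place of -0.38. The cause of these moves was not tested, except where a gene was no longer measured.

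Over all rows, 77 were called at 3 dpa, with 10 to 393 over alternatives (10 with only the groups compared, 139 with the replicate block, 393 without TCDD replicate 2 at 3 dpa and 283 without TCDD replicate 3 at 2 dpa). At 2 dpa 26 were called, with 6 to 166 (6 with no moderation, 166 with quantile normalization). In the mean effect 783 were called, with 279 to 1417 (279 with no moderation, 1417 without TCDD replicate 2 at 3 dpa). Replicate numbers are shared by the groups but the labels do not tie them to a litter or day, and the correlations of same-numbered arrays' deviations ran from -0.26 to 0.50 without exceeding 0.1 in every pair. Ratios hold no background level, so a filter on intensity was not run, and leaving out probe sets of median below 1 stood in for it.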
